A study of Mus musculus with 9 samples.

Results

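The genes of the tumor necrosis factor (TNF) ligand and receptor superfamily were examined in HC11 cells carrying either of 2 transcription factors. They were found by symbol, as every gene on the array named Tnf, Tnfsf, Tnfrsf, Tnfaip, Lta, Ltb, Ltbr, Fas, Fasl, Cd27, Cd40, Cd40lg, Cd70, Ngfr, Eda2r, Edar or Traf1 to Traf3. The search itself used names and no measured value, but the family was chosen with earlier results of these data known. It gave 49 genes of the 20132 gene symbols on the array: 16 ligands, 7 receptors with a death domain, 15 other receptors, 2 decoy or soluble receptors, 3 TRAF adaptors and 6 TNFAIP genes, which are named for induction by TNF and are not themselves ligands or receptors. Each had a single probe set (transcript cluster). Tnfsf12-tnfsf13, a read-through transcript of neighbouring genes, stood on a probe set that also names Tnfsf12 and Tnfsf13, so it cannot separate them. Cd40lg, Ltb and Tnfsf8 held the same value on all 9 arrays and were not tested, which left 46 genes among 18812 tested.

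HC11 is a mammary epithelial cell line cloned from the COMMA-1D line of BALB/c mice. Total RNA was measured on 9 Affymetrix Mouse Gene ST 1.0 arrays, with 3 arrays for cells transfected with FoxF1, 3 for cells transfected with the NFI-C2 construct (given as NF1-C2S in the methods of the study) and 3 for cells labelled wild type, which the methods describe as vector control cells. FoxF1 belongs to the forkhead transcription factors and NFI-C2 to the nuclear factor I family, and the comparison asked which genes each of them moved. All 3 groups grew in RPMI-1640 with fetal calf serum, penicillin and streptomycin, insulin and epidermal growth factor. The constructs were expressed in 1 cell line, the RNA came from pools of cells, and the arrays of a group were grown and harvested separately, so p-values measure the spread between such cultures. The methods do not state whether the pools of a group came from separate transfections. Whether p-values also cover the spread between transfections is therefore not known.

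Values are log2 expression from robust multi-array averaging (RMA), given relative to the median of each gene over the 9 arrays. A value of 0 is therefore the middle array, differences between groups can be read, and levels cannot be compared between genes. Within many probe sets arrays share 1 exact value: 16 of the 46 genes, against 31.8% of all genes tested, had 5 or more of the 9 arrays tied. "Called" means an adjusted p under 0.05 in limma, after Benjamini-Hochberg correction over all 18812 genes, and 1.5-fold is the criterion of size that the study used.

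Some facts of the whole series bear on what follows. The deposited values spread more widely on the FoxF1 arrays (SD over all probe sets 0.528 to 0.539) than on the NFI-C2 arrays (0.211 to 0.243) and wild type arrays (0.174 to 0.183). Quantile normalization, quoted below as an alternative, narrows the FoxF1 arrays and widens the others, so it can shrink or enlarge a difference. Neither gene behind a construct was called higher in its own line: Foxf1a differed from wild type by 0.20 (adjusted p = 0.35) in FoxF1 cells, and Nfic by -0.04 (adjusted p = 0.76) in NFI-C2 cells, while Foxf1a was lower by 1.24 on the log2 scale in NFI-C2 cells. Whether the probes read the transfected sequence was not tested, so these values do not check the labels. Over all genes tested, 20.9% were called higher and 19.1% lower with FoxF1, and 9.18% and 12.5% with NFI-C2. All 8 markers of mammary epithelium measured were lower in FoxF1 cells, with a mean over the markers of -5.38 to -4.63 on the 3 FoxF1 arrays against 0.58 to 0.59 in wild type, and 5 of 8 fibroblast markers were higher (0.80 to 1.27 against -0.11 to -0.05). Of the fibroblast markers, Pdgfrb (3.69) and Col3a1 (2.32) differed most with FoxF1, and Dcn, Lum and Thy1 were not called. In NFI-C2 cells 1 epithelial marker was higher (Trp63, 0.77, adjusted p = 0.00041) and 2 were lower (Krt18, -3.21, adjusted p = 4.9e-08, and Krt8, -1.13, adjusted p = 0.021), with means of 0.24 to 0.32 over the 8. Of the fibroblast markers, 1 was higher (Pdgfra, 0.39, adjusted p = 0.048) and 1 lower (Dcn, -1.01, adjusted p = 0.031), with means of -0.25 to -0.15. Of 11 immune cell markers, 1 was higher and 2 lower with FoxF1 (means -0.16 to -0.13 against 0.02 to 0.05), and 1 was lower with NFI-C2. These shifts moved with the FoxF1 and NFI-C2 results described here, and their part in them was not tested. In RNA from whole cultures, fewer cells of a kind and less RNA per cell cannot be told apart.

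TNF family ligands are mostly trimeric membrane proteins that can be shed, and they act by clustering receptors on a target cell. Receptors with a death domain, such as Fas and TNF receptor 1, can recruit FADD and caspase 8 and start apoptosis. The others bind TRAF adaptors and feed NF-kB and MAP kinase signalling, and decoy receptors take up ligand without passing on a signal. In the mammary gland the family is best known for RANKL (Tnfsf11) and its receptor RANK (Tnfrsf11a), which act in the growth of alveoli during pregnancy, and HC11 cells themselves grow as an epithelial sheet.

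The promoters of 5 genes with large differences, 4 that rose and 1 that fell, are shown because they are the stretches in which binding sites for the transfected factors or for NF-kB would first be sought. Each is the 250 bases before a RefSeq transcription start, read in the direction of the gene on mouse build GRCm38.p6. Tnfrsf9, which encodes the T cell costimulatory receptor CD137, has 2 annotated starts. The window before the second (chr4:150927749-150927998, plus strand) holds a match to the NF-kB consensus, 43 to 33 bases before the start, and a match to the AP-1 motif TGANTCA, 15 to 9 bases before it. The window before the first start (chr4:150919905-150920154) holds neither. Traf1, a signalling adaptor, is on the minus strand (chr2:34961773-34962022) and its window holds the NFI half-site TTGGCA once on each strand. The windows of Tnfsf10, which encodes the ligand TRAIL (chr3:27316827-27317076, plus strand), Tnfrsf1b, which encodes TNF receptor 2 (chr4:145246871-145247120, minus strand), and Tnfrsf21, which encodes death receptor 6 (chr17:43016305-43016554, plus strand), hold none of the motifs searched. Capitals mark the matches.
Tnfrsf9, second start: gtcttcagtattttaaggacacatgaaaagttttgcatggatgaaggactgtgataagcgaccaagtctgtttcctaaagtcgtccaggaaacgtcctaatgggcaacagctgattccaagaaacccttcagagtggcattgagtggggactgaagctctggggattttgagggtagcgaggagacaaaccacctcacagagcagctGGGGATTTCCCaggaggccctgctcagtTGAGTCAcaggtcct
Traf1: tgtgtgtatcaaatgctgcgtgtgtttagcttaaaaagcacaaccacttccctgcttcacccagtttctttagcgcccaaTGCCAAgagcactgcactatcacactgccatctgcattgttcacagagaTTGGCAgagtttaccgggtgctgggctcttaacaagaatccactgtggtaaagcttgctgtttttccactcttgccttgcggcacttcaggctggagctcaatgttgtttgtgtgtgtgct
Tnfrsf1b: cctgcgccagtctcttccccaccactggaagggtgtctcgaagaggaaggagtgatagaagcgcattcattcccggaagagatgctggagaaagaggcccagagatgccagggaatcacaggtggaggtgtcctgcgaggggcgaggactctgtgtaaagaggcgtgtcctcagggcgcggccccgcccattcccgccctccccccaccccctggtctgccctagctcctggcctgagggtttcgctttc
Tnfrsf21: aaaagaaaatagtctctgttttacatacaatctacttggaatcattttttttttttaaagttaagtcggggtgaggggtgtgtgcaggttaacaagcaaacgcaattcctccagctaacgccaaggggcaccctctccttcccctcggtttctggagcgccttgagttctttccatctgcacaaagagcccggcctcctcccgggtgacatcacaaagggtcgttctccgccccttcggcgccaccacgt
Tnfsf10: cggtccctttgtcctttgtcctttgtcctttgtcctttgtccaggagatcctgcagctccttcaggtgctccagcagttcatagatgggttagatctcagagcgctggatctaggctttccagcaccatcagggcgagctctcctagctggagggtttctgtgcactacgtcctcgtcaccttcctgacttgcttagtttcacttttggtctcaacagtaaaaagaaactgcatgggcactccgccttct

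The same search, on both strands, covered 44 promoter windows of 39 member genes. The NF-kB consensus was found for 8 of the 39 genes (Ltb, Tnfaip2, Tnfaip3, Tnfaip8l1, Tnfrsf25, Tnfrsf8, Tnfrsf9 and Traf3). It stood in 8 of the 44 windows, and in 7.25% of all 32851 promoters of the same length. For the other motifs too, as many of the 44 windows as genes held a match. TGANTCA was found for 6 genes (6.75% of all promoters), TTGGCA for 4 (12.3%), and the full NFI palindrome, with a half-site on each side of a spacer, for 0 (0.0365%). The forkhead motif GTAAACA was found for Eda2r and Ltb (3.17% of all promoters) and GTAAATA for Tnfrsf13b (2.73%). Some matches to a motif overlap, either read on both strands or shifted by a base (as for the NF-kB consensus in Tnfrsf9 and Tnfrsf8), and each gene is counted once per motif. A match is a description of the letters, not a measured site.

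**Figure D1:**
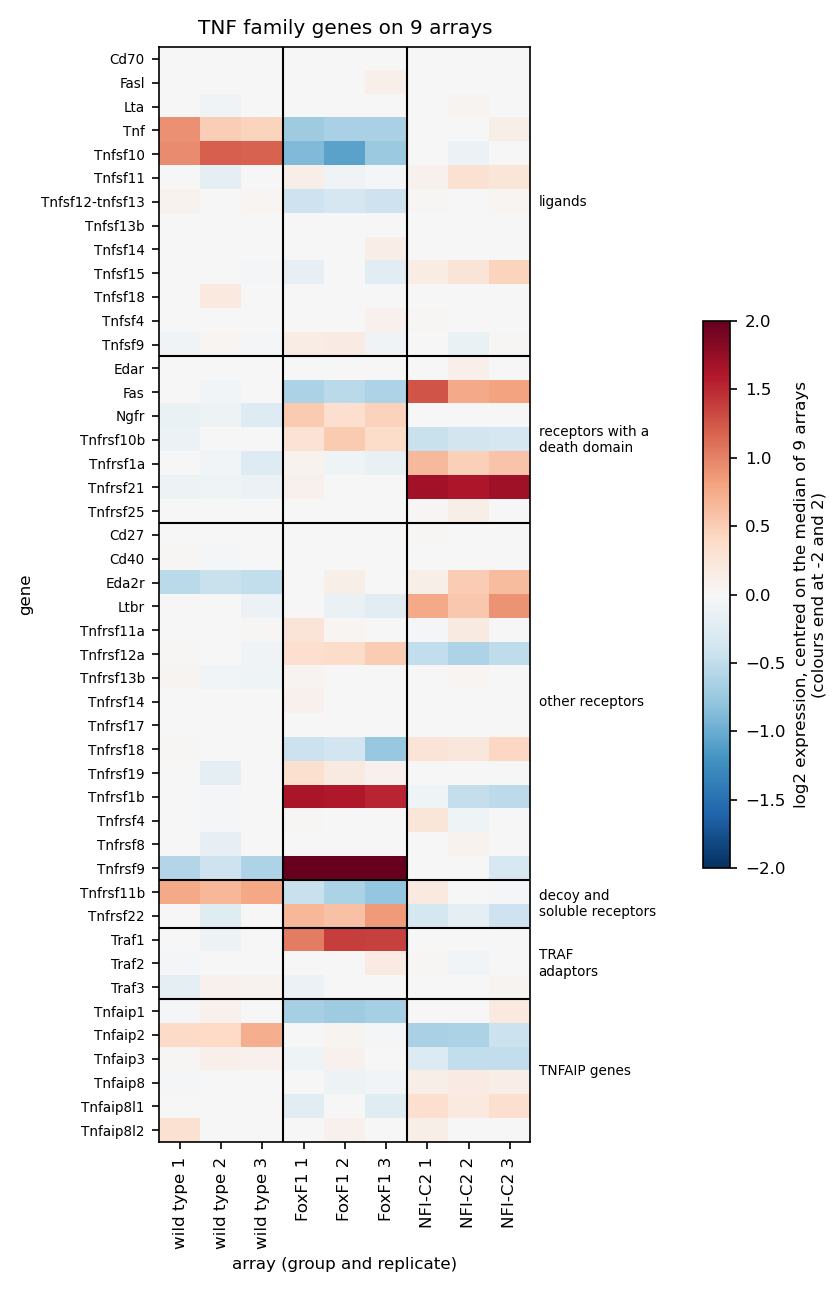
Centred log2 expression of the 46 tested genes (rows, grouped by role) on the 9 arrays (columns), with red above and blue below the median of the gene and colours ending at -2 and 2. Strong colours are seen for Tnfrsf9, Tnfrsf1b and Traf1 on the FoxF1 arrays, Tnfrsf21 and Fas on the NFI-C2 arrays and Tnfsf10 on the FoxF1 and wild type arrays, and rows with 5 or more tied arrays stay near white.

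With FoxF1, 10 of the 46 genes were higher and 8 lower than in wild type. Both shares were close to those of all genes tested, since 39.1% of the family was called against 40.0% of all genes, 21.7% against 20.9% upward and 17.4% against 19.1% downward. The 10 that rose were 9 receptors and 1 adaptor (Tnfrsf9, Tnfrsf1b, Traf1, Tnfrsf22, Ngfr, Eda2r, Tnfrsf10b, Tnfrsf12a, Tnfrsf19 and Tnfrsf21). No ligand was among them, but the ligands Cd70, Fasl, Lta, Tnfsf13b, Tnfsf14, Tnfsf18 and Tnfsf4 had 5 or more tied arrays. The 8 that fell held 3 of the 13 tested ligands (Tnfsf10, Tnf and Tnfsf12-tnfsf13), the receptors Tnfrsf11b, Fas and Tnfrsf18, and Tnfaip1 and Tnfaip2. Past 1.5-fold there were 9 genes, or 19.6% against 16.1% of all genes, with 5 higher (7.14% of all genes) and 4 lower (1693 of the 18812 genes tested). The median difference of the family was 0.01, as for all genes.

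With NFI-C2, 9 genes were higher and 7 lower, so that 34.8% of the family was called, against 21.7% of all genes tested (19.6% against 9.18% upward and 15.2% against 12.5% downward). Those that rose were the receptors Tnfrsf21, Fas, Eda2r, Ltbr and Tnfrsf1a, the ligands Tnfsf11 and Tnfsf15, and Tnfaip8 and Tnfaip8l1. The genes that fell were the ligands Tnfsf10 and Tnf, the receptors Tnfrsf11b, Tnfrsf12a and Tnfrsf10b, and Tnfaip2 and Tnfaip3. Past 1.5-fold there were 8 genes, or 17.4% against 5.10% of all genes, with 5 higher (2.38% of all genes) and 3 lower (2.72% of all genes). Among genes with fewer than 5 tied arrays, 31.5% of all and 16 of 30 family members were called in this comparison, and 58.0% of all and 17 of 30 members in the FoxF1 comparison. Both comparisons use the same wild type arrays.

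Set directly against each other, FoxF1 and NFI-C2 cells differed in 23 of the 46 genes (43.2% of all genes differed), with 9 higher and 14 lower in FoxF1 cells. The share of lower calls was 30.4% against 19.6% of all genes, and that of higher calls 19.6% against 23.5%. Past 1.5-fold there were 15 genes (32.6% against 18.8%), 6 higher (9.24% of all genes) and 9 lower (9.59%). Arrays of FoxF1 and wild type did not overlap for 19 genes (46.1% of all genes did not), 11 of them higher (24.4%) and 8 lower (21.7%). Those of NFI-C2 and wild type did not overlap for 21 (33.3%), 13 higher (15.0%) and 8 lower (18.4%), and those of FoxF1 and NFI-C2 for 25 (47.9%), 10 higher (25.8%) and 15 lower (22.1%).

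**Figure D2:**
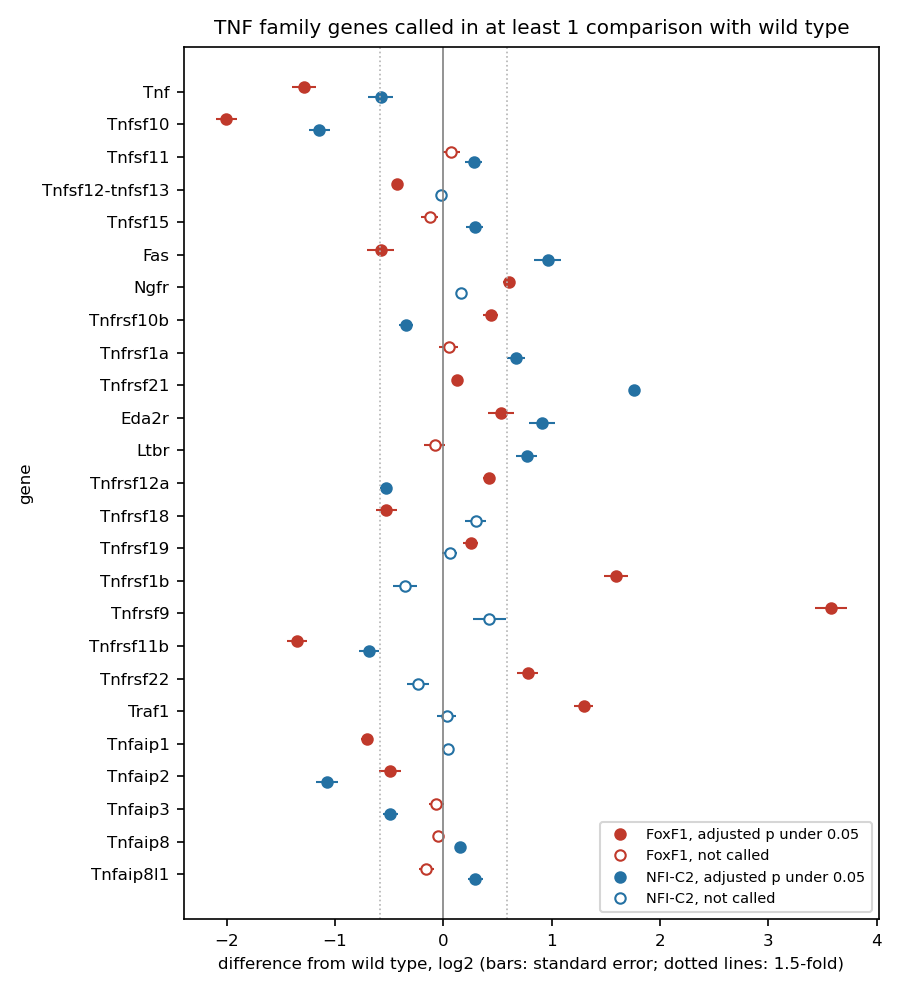
Difference from wild type in log2 units (horizontal axis, bars showing the standard error) for the 25 genes called in at least 1 comparison with wild type, with filled points for adjusted p under 0.05 and dotted lines at 1.5-fold. Tnfrsf9 stands farthest to the right at 3.58 with FoxF1 and Tnfsf10 farthest to the left at -2.01, and Fas, Tnfrsf10b and Tnfrsf12a have their called points for FoxF1 and NFI-C2 on opposite sides of 0.

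Among the ligands, TRAIL (Tnfsf10), which binds death receptors on transformed cells, had the largest change. Its values were 0.95, 1.19 and 1.18 on the wild type arrays, 0.01, -0.12 and 0.00 on the NFI-C2 arrays and -0.89, -1.07 and -0.74 on the FoxF1 arrays. The 3 groups formed separate bands with wild type highest and FoxF1 lowest. The difference was -2.01 with FoxF1 (standard error 0.0974, 4.01-fold, adjusted p = 2.1e-06) and -1.14 with NFI-C2 (2.21-fold, adjusted p = 0.00019), and FoxF1 lay below NFI-C2 by -0.86 (adjusted p = 0.00019, and -0.44 after quantile normalization).

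Tnf itself, the inflammatory cytokine that gives the family its name, lay in the same order. Wild type arrays read 0.91, 0.49 and 0.44, NFI-C2 arrays 0.00, 0.00 and 0.12, and FoxF1 arrays -0.71, -0.65 and -0.65. No groups overlapped, and the wild type arrays had the widest spread of any member in that group (SD 0.255, n = 3). Tnf fell by 1.29 on the log2 scale with FoxF1 (standard error 0.115, 2.44-fold, adjusted p = 5.9e-05) and by 0.58 with NFI-C2 (1.49-fold, adjusted p = 0.0097). The FoxF1 and NFI-C2 lines differed by -0.71 (adjusted p = 0.0014), which became -0.42 with an adjusted p of 0.051 after quantile normalization of the arrays.

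The read-through probe set Tnfsf12-tnfsf13, which covers TWEAK (Tnfsf12) and APRIL (Tnfsf13), read -0.42, -0.34 and -0.42 on the FoxF1 arrays against 0.07, 0.00 and 0.04 in wild type and 0.02, 0.00 and 0.04 with NFI-C2. Only the FoxF1 arrays stood apart, by -0.43 from wild type (adjusted p = 1.2e-05), and NFI-C2 differed from wild type by -0.02 (adjusted p = 0.73). RANKL (Tnfsf11) read 0.09, 0.30 and 0.24 with NFI-C2 against 0.00, -0.20 and 0.00 in wild type, a difference of 0.28 (adjusted p = 0.043). Tnfsf15, the ligand TL1A, read 0.15, 0.25 and 0.45 against 0.00, 0.00 and -0.02, a difference of 0.29 (adjusted p = 0.040). Both calls were near the threshold: each was lost in 7 of the 9 fits that left out 1 array, with differences of 0.21 to 0.34 and adjusted p up to 0.14 for Tnfsf11, and 0.21 to 0.36 and up to 0.11 for Tnfsf15. The 8 other ligands tested (Cd70, Fasl, Lta, Tnfsf13b, Tnfsf14, Tnfsf18, Tnfsf4 and Tnfsf9) were called in no comparison with wild type, and of them Tnfsf9 alone had fewer than 5 tied arrays.

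The receptors with a death domain split between the lines. Tnfrsf21, or death receptor 6, a receptor with a part in neurons and in T cell responses, read 1.68, 1.61 and 1.69 on the NFI-C2 arrays, -0.10, -0.09 and -0.11 in wild type and 0.09, 0.00 and -0.01 with FoxF1. The NFI-C2 arrays stood far above the other 6, which lay close together. The difference with NFI-C2 was 1.76 (standard error 0.0340, 3.39-fold, adjusted p = 2.3e-07). The rise with FoxF1 was 0.12 (adjusted p = 0.023) and was lost without wild type replicate 1 or 3 (0.09 to 0.14 over all fits that left out 1 array, adjusted p up to 0.071). FoxF1 cells lay 1.64 below NFI-C2 cells (3.11-fold, adjusted p = 2.2e-08).

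Fas, the receptor of Fas ligand, was called in opposite directions. Its values were 1.26, 0.75 and 0.81 with NFI-C2, 0.00, -0.06 and 0.00 in wild type and -0.64, -0.54 and -0.61 with FoxF1. The groups did not overlap, and NFI-C2 replicate 1 was the highest array. Fas rose by 0.96 with NFI-C2 (standard error 0.123, 1.95-fold, adjusted p = 0.0013), fell by 0.58 with FoxF1 (1.49-fold, adjusted p = 0.0065) and differed by -1.54 between the lines (2.91-fold, adjusted p = 2.7e-05). The FoxF1 call did not hold after quantile normalization (-0.29, adjusted p = 0.19).

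Tnfrsf10b, the mouse death receptor of TRAIL, moved the other way. FoxF1 arrays read 0.29, 0.53 and 0.37, NFI-C2 arrays -0.44, -0.37 and -0.33, and wild type arrays -0.12, 0.00 and 0.01. Wild type lay between the lines without overlap. The differences were 0.44 with FoxF1 (adjusted p = 0.0012, but 0.29 and 0.063 after quantile normalization) and -0.34 with NFI-C2 (adjusted p = 0.0087, and -0.56 after quantile normalization), and the lines differed by 0.78 (1.72-fold, adjusted p = 4e-05).

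Tnfrsf1a, TNF receptor 1, rose with NFI-C2, where it read 0.65, 0.47 and 0.57 against 0.00, -0.06 and -0.26 in wild type and 0.07, -0.09 and -0.15 with FoxF1. The NFI-C2 arrays lay above the rest, and FoxF1 and wild type arrays overlapped. The difference was 0.67 with NFI-C2 (standard error 0.0869, 1.59-fold, adjusted p = 0.0014) and 0.05 with FoxF1 (adjusted p = 0.72). Ngfr, the low-affinity neurotrophin receptor, read 0.52, 0.34 and 0.46 with FoxF1 against -0.14, -0.10 and -0.26 in wild type and 0.00, 0.01 and -0.01 with NFI-C2. FoxF1 arrays were highest throughout, by 0.61 over wild type (standard error 0.0550, 1.52-fold, adjusted p = 6.4e-05). Its difference of 0.17 with NFI-C2 was not called (adjusted p = 0.073) but was called after quantile normalization (0.39, adjusted p = 0.029). The remaining death domain receptors, Edar and Tnfrsf25, had 5 or more tied arrays and were called in no comparison.

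**Figure D3:**
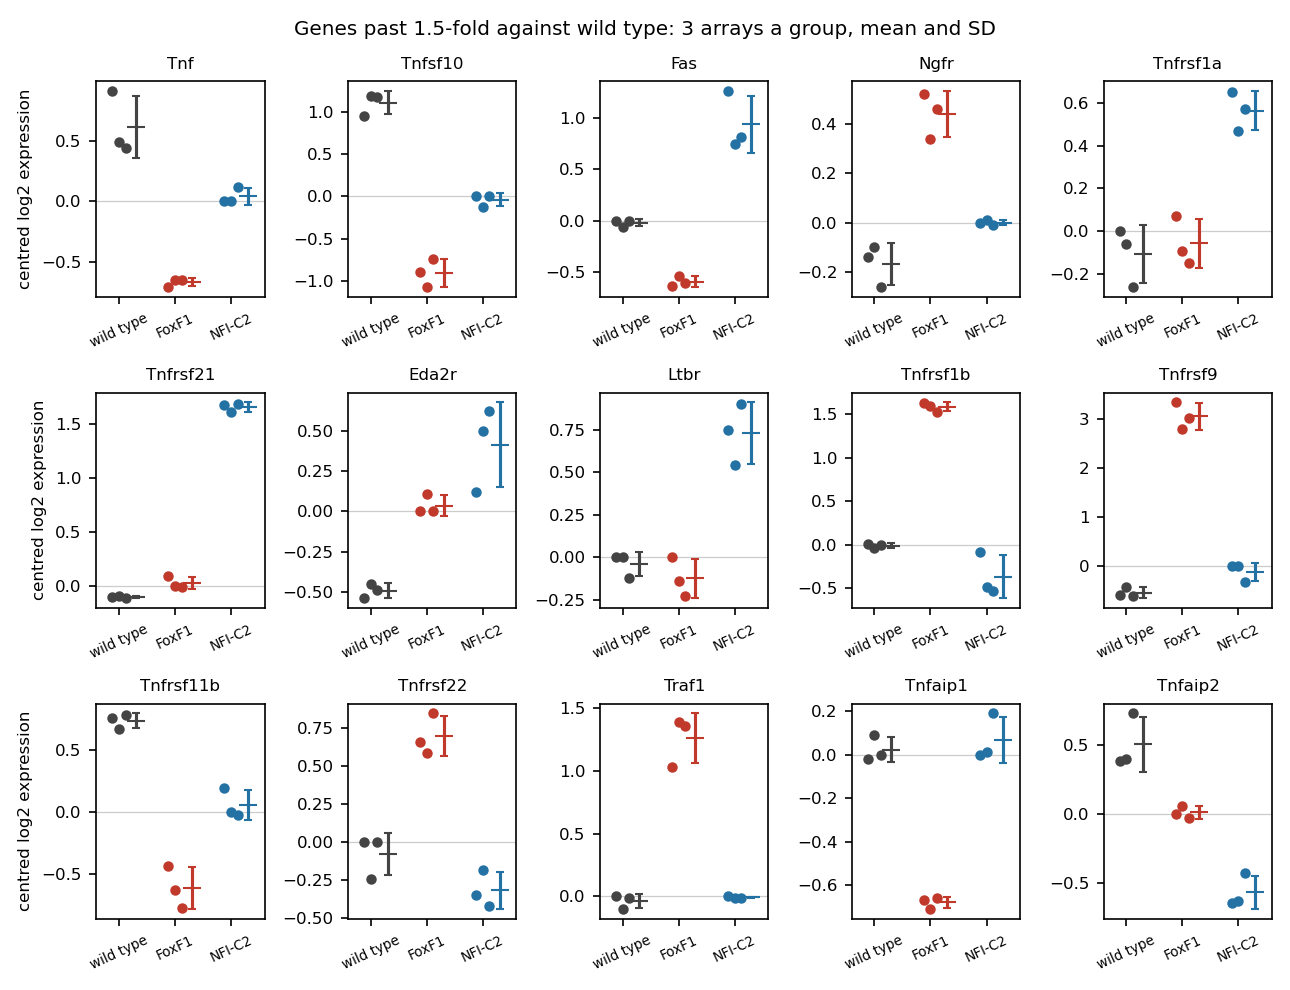
Centred log2 expression (vertical axis, own scale in each panel) of the 15 genes past 1.5-fold in a comparison with wild type, with a point for each of the 3 arrays a group and the group mean and SD beside them. Tnf, Tnfsf10 and Tnfrsf11b step down from wild type through NFI-C2 to FoxF1, Tnfrsf9, Tnfrsf1b, Traf1, Tnfrsf22 and Ngfr are highest with FoxF1, and Tnfrsf21, Fas, Ltbr, Tnfrsf1a and Eda2r are highest with NFI-C2.

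Of the 15 receptors grouped as other receptors, 5 rose and 1 fell with FoxF1 (20.9% and 19.1% of all genes did), and 2 rose and 1 fell with NFI-C2 (9.18% and 12.5%). Tnfrsf9, whose promoter is printed above, had the largest difference of the family. It read 3.33, 2.79 and 3.02 on the FoxF1 arrays, 0.00, 0.00 and -0.32 with NFI-C2 and -0.58, -0.41 and -0.61 in wild type. The FoxF1 arrays were far above all others, and the NFI-C2 arrays lay above wild type without overlap. The FoxF1 difference was 3.58 (standard error 0.149, 11.96-fold, adjusted p = 8.9e-07). The NFI-C2 difference of 0.43 was not called (adjusted p = 0.090) but passed without FoxF1 replicate 1 (adjusted p = 0.048) and after quantile normalization (1.39, adjusted p = 0.0013).

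Tnfrsf1b, TNF receptor 2, has no death domain and binds TRAF2. FoxF1 arrays read 1.63, 1.60 and 1.53, NFI-C2 arrays -0.08, -0.48 and -0.53, and wild type arrays 0.01, -0.04 and 0.00. The FoxF1 arrays were tightly grouped above the rest. The difference was 1.60 with FoxF1 (standard error 0.109, 3.02-fold, adjusted p = 1.3e-05, and 1.05 after quantile normalization) and -0.35 with NFI-C2, which missed the threshold (adjusted p = 0.060) and passed it without NFI-C2 replicate 1 (-0.49, adjusted p = 0.00046). TNF receptors 1 and 2 thus differed between the lines in opposite directions, Tnfrsf1a by -0.62 (adjusted p = 0.00064) and Tnfrsf1b by 1.95 (3.86-fold, adjusted p = 3.8e-06) for FoxF1 minus NFI-C2.

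Tnfrsf12a, the TWEAK receptor Fn14, read 0.33, 0.37 and 0.50 with FoxF1, -0.50, -0.62 and -0.51 with NFI-C2 and 0.02, 0.00 and -0.07 in wild type. Wild type lay between the lines, as for Tnfrsf10b. The differences were 0.42 with FoxF1 (adjusted p = 0.00046, but 0.26 and 0.064 after quantile normalization), -0.53 with NFI-C2 (adjusted p = 0.00043, and -0.99 after quantile normalization) and 0.95 between the lines (1.93-fold, adjusted p = 4.1e-06). Tnfrsf18, the costimulatory receptor GITR, was placed the opposite way, at -0.43, -0.38 and -0.76 with FoxF1, 0.26, 0.22 and 0.41 with NFI-C2 and 0.02, -0.01 and 0.00 in wild type. It was called lower with FoxF1 (-0.53, adjusted p = 0.0034, and -0.30 after quantile normalization), while the NFI-C2 difference of 0.30 was not called (adjusted p = 0.074) and the lines differed by -0.82 (1.77-fold, adjusted p = 0.00026). The NFI-C2 call passed in 6 of 20 alternative fits, with the test against 1.5-fold not counted. Among them were quantile normalization (0.39, adjusted p = 0.0027) and the fit without FoxF1 replicate 3, its lowest array (adjusted p = 0.0088).

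Ltbr, the lymphotoxin beta receptor, which activates noncanonical NF-kB signalling, read 0.75, 0.54 and 0.90 with NFI-C2 against 0.00, 0.00 and -0.12 in wild type and 0.00, -0.14 and -0.23 with FoxF1. The NFI-C2 arrays stood above all others, by 0.77 over wild type (standard error 0.0967, 1.71-fold, adjusted p = 0.0012), and the FoxF1 difference was -0.08 (adjusted p = 0.59). Eda2r, a receptor of ectodysplasin A2, was higher in both lines, with -0.54, -0.45 and -0.49 in wild type, 0.00, 0.11 and 0.00 with FoxF1 and 0.12, 0.50 and 0.63 with NFI-C2. It rose by 0.91 with NFI-C2 (standard error 0.119, 1.88-fold, adjusted p = 0.0014) and 0.53 with FoxF1 (adjusted p = 0.0085), and quantile normalization made these 2.00 and 1.45. The difference of -0.38 between the lines (adjusted p = 0.034) was lost in 8 of the 9 fits that left out 1 array (-0.53 to -0.27, adjusted p up to 0.11).

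Tnfrsf19, the receptor TROY, read 0.32, 0.18 and 0.08 with FoxF1 and was tied at 0.00 on 5 of the other 6 arrays. Its difference of 0.25 (adjusted p = 0.022) was lost without FoxF1 replicate 1, FoxF1 replicate 2 or wild type replicate 2 (0.19 to 0.31 over all fits that left out 1 array, adjusted p up to 0.064). RANK (Tnfrsf11a) differed from wild type by 0.09 and 0.05 and was not called. The other 7 receptors of this group (Cd27, Cd40, Tnfrsf13b, Tnfrsf14, Tnfrsf17, Tnfrsf4 and Tnfrsf8) were called in neither comparison with wild type.

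The decoy receptors Tnfrsf11b and Tnfrsf22 moved apart with FoxF1. Tnfrsf11b, osteoprotegerin, is a soluble decoy for RANKL that also binds TRAIL, and it read 0.76, 0.67 and 0.78 in wild type, 0.19, 0.00 and -0.03 with NFI-C2 and -0.44, -0.63 and -0.78 with FoxF1. The groups were separate and in the order seen for Tnfsf10 and Tnf. It fell by 1.35 with FoxF1 (standard error 0.0933, 2.56-fold, adjusted p = 1.4e-05) and by 0.68 with NFI-C2 (1.60-fold, adjusted p = 0.0018). Tnfrsf22, a mouse decoy receptor for TRAIL, read 0.66, 0.59 and 0.85 with FoxF1, -0.35, -0.18 and -0.42 with NFI-C2 and 0.00, -0.24 and 0.00 in wild type. FoxF1 arrays stood above the rest, by 0.78 over wild type (standard error 0.100, 1.71-fold, adjusted p = 0.00046), whereas NFI-C2 and wild type overlapped (-0.23, adjusted p = 0.16).

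Of the TRAF adaptors, Traf1, which has no RING domain and is itself induced by NF-kB, read 1.03, 1.39 and 1.36 with FoxF1, 0.00, -0.01 and -0.01 with NFI-C2 and 0.00, -0.10 and -0.01 in wild type. The FoxF1 arrays alone were high, by 1.30 (standard error 0.0885, 2.46-fold, adjusted p = 1.3e-05). Traf2, which links TNF receptors to NF-kB, differed from wild type by 0.07 with FoxF1 and 0.00 with NFI-C2, and Traf3, a brake on the noncanonical pathway, by -0.02 and 0.03. Neither was called.

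Of the 6 TNFAIP genes, 2 fell with FoxF1 (19.1% of all genes did), and 2 rose and 2 fell with NFI-C2 (9.18% and 12.5% of all genes). Tnfaip1, an adaptor of a cullin ubiquitin ligase, read -0.67, -0.71 and -0.66 with FoxF1 against -0.02, 0.09 and 0.00 in wild type and 0.00, 0.01 and 0.19 with NFI-C2. The FoxF1 arrays were separate from the other 6, at -0.71 from wild type (standard error 0.0548, 1.63-fold, adjusted p = 2.8e-05, and -0.43 after quantile normalization). Tnfaip2, or M-Sec, a protein that takes part in forming membrane tunnelling nanotubes, read 0.38, 0.40 and 0.73 in wild type, 0.00, 0.06 and -0.03 with FoxF1 and -0.65, -0.63 and -0.43 with NFI-C2. Here the NFI-C2 arrays were lowest and FoxF1 lay between, with differences of -1.07 with NFI-C2 (standard error 0.101, 2.10-fold, adjusted p = 0.0003) and -0.49 with FoxF1 (adjusted p = 0.0055), which became -1.83 and -0.74 after quantile normalization.

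Tnfaip3, the ubiquitin-editing enzyme A20 that shuts off NF-kB signalling, read -0.28, -0.49 and -0.49 with NFI-C2 against 0.02, 0.10 and 0.08 in wild type and -0.08, 0.09 and 0.00 with FoxF1. NFI-C2 arrays were the low ones, at -0.49 from wild type (adjusted p = 0.0020, and -0.85 after quantile normalization), and the FoxF1 difference was -0.06 (adjusted p = 0.54). Tnfaip8, which has been tied to survival of cells under TNF, rose by 0.15 with NFI-C2 (adjusted p = 0.0064). Its relative Tnfaip8l1 rose by 0.29 (adjusted p = 0.021), a call lost without NFI-C2 replicate 1 or 3 or any 1 of the wild type arrays (0.27 to 0.34, adjusted p up to 0.080). Tnfaip8l2 differed by -0.08 and -0.06 and was not called.

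The same differences can be set out by ligand and receptor. In the TRAIL axis with FoxF1, the ligand Tnfsf10 was at -2.01, its soluble decoy Tnfrsf11b at -1.35, its death receptor Tnfrsf10b at 0.44 and its decoy Tnfrsf22 at 0.78. With NFI-C2 the same genes stood at -1.14, -0.68, -0.34 and -0.23, the last of them not called. For TNF, the ligand was at -1.29 with FoxF1 beside Tnfrsf1a at 0.05 and Tnfrsf1b at 1.60, and at -0.58 with NFI-C2 beside 0.67 and -0.35. Tnfrsf9 rose by 3.58 while its ligand Tnfsf9 differed by 0.10 and was not called. Fas was called in both lines, and Fasl was tied at 1 value on all arrays but FoxF1 replicate 3. For the RANKL system, Tnfsf11 differed by 0.07 and 0.28, RANK by 0.09 and 0.05 and osteoprotegerin by -1.35 and -0.68. Eda, the gene of the ectodysplasin ligands and not one of the 49, rose by 0.42 with FoxF1 (adjusted p = 0.00024) beside Eda2r at 0.53.

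In all, 25 of the 46 genes were called in at least 1 comparison with wild type. Calls in either or both comparisons were counted for the family only. Over all genes tested, 40.0% were called with FoxF1 and 21.7% with NFI-C2. Lower in both lines were Tnf, Tnfsf10, Tnfrsf11b and Tnfaip2, and higher in both were Eda2r and Tnfrsf21. Fas was lower with FoxF1 and higher with NFI-C2, while Tnfrsf10b and Tnfrsf12a rose with FoxF1 but were lower under NFI-C2. The other 21 genes differed from wild type by -0.08 to 0.10 with FoxF1 and -0.06 to 0.08 with NFI-C2, and 15 of them had 5 or more tied arrays. Within groups, the median SD over the family was 0.056 for FoxF1, 0.059 for NFI-C2 and 0.040 for wild type. These medians include the 16 genes with 5 or more tied arrays, many with an SD at or near 0. The highest SDs were those of Tnfrsf9 with FoxF1 (0.273), Fas with NFI-C2 (0.280) and Tnf in wild type (0.255).

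Family genes often lie side by side, and neighbours did not always share a call. On the mouse build of the array annotation (NCBIM37), 11 neighbouring pairs lay within 200 kb of each other, involving 19 of the 49 genes, and chromosomes 4 and 17 held 9 genes each. Ltbr (6:125256594-125263872) and Tnfrsf1a lie 35.9 kb apart on chromosome 6 and both rose with NFI-C2, by 0.77 and 0.67, whereas Cd27, 69.5 kb from Ltbr, was not called. Tnf lies 1.2 kb from Lta and 3.1 kb from Ltb on chromosome 17 and was the only one of them called, and Ltb was the same on all arrays. Tnfrsf18 fell with FoxF1 while Tnfrsf4, 9.7 kb away on chromosome 4, was not called. Tnfrsf1b rose with FoxF1 while Tnfrsf8, 22.1 kb away, was not called. Tnfaip2 fell in both lines while Traf3, 177.8 kb away on chromosome 12, was not called. However, Cd27, Lta and Tnfrsf8 each had 7 of the 9 arrays tied. Of all genes with 5 or more tied arrays, 1.45% were called with FoxF1 and 0.652% with NFI-C2.

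Genes that act below the receptors were read from lists that share no gene with the 49. The lists, too, were chosen with earlier results of these data known. Of 22 measured genes of receptor-proximal signalling, 7 rose, 7 fell and 8 were not called with FoxF1 (median difference -0.08), and 2 rose and 8 fell with NFI-C2 (-0.07). Over all genes, 20.9% rose and 19.1% fell with FoxF1 (median 0.01), and 9.18% rose and 12.5% fell with NFI-C2 (0.00). The most changed with FoxF1 were Traf4, a TRAF family member expressed in epithelium (-1.79, adjusted p = 1.3e-06), Tnip1, a partner of A20 (-1.22, adjusted p = 1.6e-05), Cyld, a deubiquitinase that restrains NF-kB (0.87, adjusted p = 3e-06), and Sharpin, a subunit of the linear ubiquitin ligase (0.84, adjusted p = 5.7e-06). With NFI-C2 they were Map3k7, the kinase TAK1 (-0.61, adjusted p = 0.00012), Traf4 (-0.48, adjusted p = 0.0044), Map3k5 (-0.43, adjusted p = 0.0020) and Birc3, a ubiquitin ligase bound to TRAF2 (-0.42, adjusted p = 0.011).

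Of 15 components of NF-kB and the IkB kinases, 1 rose and 10 fell with FoxF1 (median -0.34, beside 20.9% higher and 19.1% lower over all genes), and 1 rose and 3 fell with NFI-C2 (0.02, beside 9.18% and 12.5%). With FoxF1 the kinase Ikbke (-1.16, adjusted p = 6.4e-05), the nuclear IkB proteins Nfkbiz (-1.16, adjusted p = 5.6e-06) and Bcl3 (-0.67, adjusted p = 0.0014) and the subunit Rel (-0.54, adjusted p = 0.00078) fell most, and Rela was the 1 that rose (0.29, adjusted p = 0.0081). Not called with FoxF1 were Nfkbia (-0.10, adjusted p = 0.315), Nfkb2 (-0.13, adjusted p = 0.133), Relb (0.03, adjusted p = 0.856) and Ikbkg (-0.03, adjusted p = 0.449). With NFI-C2 the inhibitor Nfkbie fell by 1.12 (adjusted p = 4.8e-05), and Nfkbib (-0.34, adjusted p = 0.029) and Nfkb1 (-0.24, adjusted p = 0.0072) were the others that fell, while Rel rose by 0.36 (adjusted p = 0.013).

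Of 12 genes of the death machinery, 1 rose and 4 fell with FoxF1 (median -0.05), and 1 rose and 3 fell with NFI-C2 (-0.02). The share called over all genes was 40.0% with FoxF1 and 21.7% with NFI-C2. Casp8, the initiator caspase of death receptors, fell in both (-0.33, adjusted p = 0.0021, and -0.66, adjusted p = 0.00019), as did Cflar, its inhibitor (-0.20, adjusted p = 0.013, and -0.60, adjusted p = 0.00015). Bid, which carries the signal to mitochondria, fell with FoxF1 (-0.66, adjusted p = 0.00011), as did Diablo, which mitochondria release (-0.26, adjusted p = 0.037). Apaf1, the core of the apoptosome, fell with NFI-C2 (-0.27, adjusted p = 0.018), and the initiator of the mitochondrial route Casp9 rose in both (0.29, adjusted p = 0.0057, and 0.30, adjusted p = 0.0092).

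Of 22 genes known as NF-kB targets, 14 fell and 2 rose with FoxF1 (median -0.44, beside 19.1% lower and 20.9% higher over all genes), and 8 fell and 2 rose with NFI-C2 (-0.17, beside 12.5% and 9.18%). The list shares no gene with the family or with the NF-kB components, so Traf1 (1.30 with FoxF1) and Tnf (-1.29) are not in it. These counts therefore describe the listed genes and not all NF-kB targets. Lower with FoxF1 were Lcn2, the iron-binding protein lipocalin 2 (-5.68, adjusted p = 3.6e-07), the neutrophil chemokines Cxcl5 (-3.74, adjusted p = 9.6e-09) and Cxcl1 (-2.83, adjusted p = 1.7e-07) and the cytokine Il6 (-3.10, adjusted p = 2.7e-08). The 2 that rose were Csf1, the macrophage growth factor (1.45, adjusted p = 7.1e-07), and the adhesion molecule Vcam1 (0.83, adjusted p = 4.3e-05). With NFI-C2, Il6 (-2.56, adjusted p = 6e-07), Cxcl2 (-1.54, adjusted p = 5.4e-05), Ccl5 (-1.25, adjusted p = 0.00017) and the granulocyte growth factor Csf3 (-0.94, adjusted p = 0.00091) were lower. Saa3, an acute phase protein (0.79, adjusted p = 0.027), and the chemokine Ccl20 (0.24, adjusted p = 0.0032) were the 2 that rose with NFI-C2. The 8 epithelial markers were lower on the same FoxF1 arrays, and their part in these counts was not tested.

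**Figure D4:**
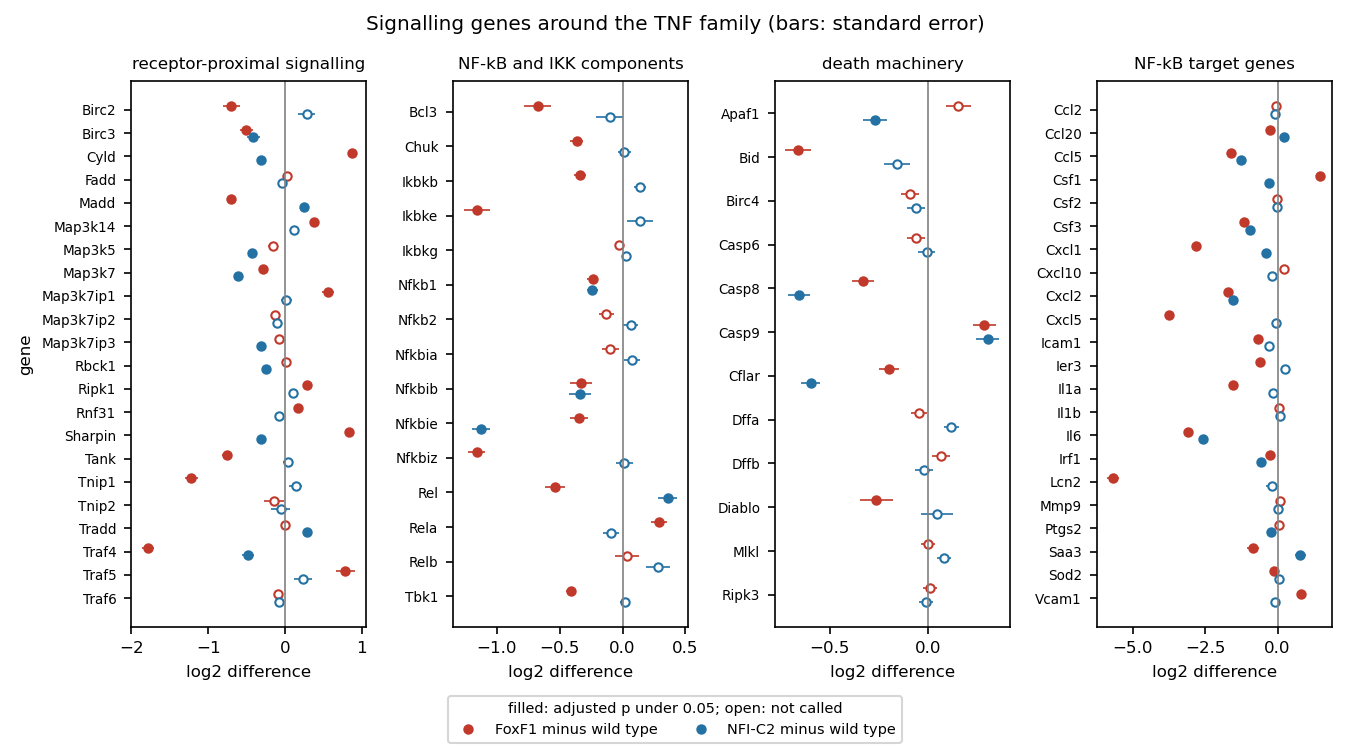
Difference from wild type in log2 units (horizontal axes, own scale in each panel, bars showing the standard error) for the measured genes of the 4 lists around the TNF family, with filled points for adjusted p under 0.05. Most FoxF1 points of the NF-kB components (10 of 15) and NF-kB targets (14 of 22) are filled and left of 0, with Lcn2 farthest at -5.68.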

How the data were processed

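Total RNA of HC11 cultures was measured on 9 Mouse Gene ST 1.0 arrays from Affymetrix. The deposited values are log2 expression, made by the authors with RMA (version not given in the sources used here) and centred on the median of each probe set over the 9 arrays. The series table of values differed from them by at most 5.0e-08. The deposited p-value columns of the authors' own analysis of variance were not used. Of 28815 probe sets, 2163 with 9 equal values were left out, and 8566 share a lowest value between arrays (tolerance 1e-06). A symbol on several rows (971) was represented by the row with most probes. The 18812 genes were fitted in 1 limma model (limma 3.58.1 in R 4.3.3) of the 3 group means with empirical Bayes moderation without trend, two-sided, with Benjamini-Hochberg adjustment. The fit has 6 residual and 1.32 prior degrees of freedom. The script was tested on simulated data. Groups came from the labels, and array number limits the precision. The sources differ on the kit for RNA extraction (Trizol in the labels, GenElute in the methods).

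The family and the lists were chosen with earlier results of these data known. Named with full values were members called and past 1.5-fold against wild type, with the other called members by their values, and up to 4 called genes of each signalling list by size of difference. Rela, Nfkbia, Nfkb2, Relb, Ikbkg, Csf1, Vcam1, Saa3 and Ccl20, and the FoxF1 value of Cflar, were added after their values were seen. Part of the death machinery list is not reported here. Markers of mammary epithelium, fibroblasts, immune cells, endothelium and adipocytes were read the same way. In endothelium (4 of 5 measured) 1 was higher and 1 lower with FoxF1, and in adipocytes 1 of 4 was higher (20.9% higher and 19.1% lower over all genes). With NFI-C2, 1 endothelial marker was higher (Pecam1, 0.48, adjusted p = 0.0186, beside 9.18% of all genes) and no adipocyte marker was called. Promoters came from RefSeq tables of GRCm38.p6 and were searched on both strands. Alternatives were the replicate number as a block, mean or single-symbol rows, genes with tied values left out, quantile normalization, median centring, robust moderation, array weights, 2-group fits, the series table, a test against 1.5-fold (treat) and each array left out in turn. Leaving out genes with 5 or more tied arrays was added after seeing the data. Tnfsf12, Tnfsf13, Tnfrsf23, Tnfrsf26, Tnfrsf13c, Tnfaip6 and Tnfaip8l3 have no row of their own and were not analysed here.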

Additional observations from a re-analysis of the deposited data

How the results depend on the processing

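No called difference of a family gene changed direction under any alternative run. Testing against 1.5-fold (treat) instead of 0 asks for more: with FoxF1, 3 family genes were then called higher (Tnfrsf9, Tnfrsf1b and Traf1) and 3 lower (Tnf, Tnfrsf11b and Tnfsf10), with NFI-C2 1 higher (Tnfrsf21) and 2 lower (Tnfaip2 and Tnfsf10), 3 past 1.5-fold in all, and between the lines 5 higher and 2 lower, 7 past 1.5-fold. For treat, and for the fits below without 1 array or with a block, calls over all genes were not counted. Tnfsf12-tnfsf13 is not among the single-symbol rows and was not tested in that fit. Under every alternative but treat that held the gene, 13 of 18 FoxF1 calls, 13 of 16 NFI-C2 calls and 20 of 23 calls between the lines were kept. The lost ones were Tnfrsf12a, Tnfrsf19, Fas, Tnfrsf10b and Tnfrsf21 with FoxF1, Tnfaip8l1, Tnfsf11 and Tnfsf15 with NFI-C2, and Tnf, Eda2r and Ngfr between the lines (Ngfr after quantile normalization, 0.26, adjusted p = 0.11).

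Quantile normalization forces arrays of unequal spread to 1 distribution, which narrows the FoxF1 arrays and widens the NFI-C2 and wild type arrays. It was run on values already centred per gene, so this rescaling alone can shrink or enlarge a difference. It gave 7 higher and 7 lower with FoxF1, 11 and 7 with NFI-C2, and 8 and 13 between the lines. Over all genes it gave 2669 higher and 3140 lower with FoxF1, 2243 and 2816 with NFI-C2, and 3153 and 3087 between the lines. Leaving out 1 array gave 9 to 10 higher and 8 to 9 lower with FoxF1, 6 to 9 and 7 to 8 with NFI-C2, and 9 to 11 and 13 to 15 between the lines. Replicate numbers are shared by the groups, but deviations of same-numbered arrays correlated by 0.00 to 0.18, and not every array correlated best with its own number. With the replicate number as a block, 10 were higher and 8 lower with FoxF1, 6 and 8 with NFI-C2, and 9 and 14 between the lines. The calls lost were Tnfaip8l1, Tnfsf11 and Tnfsf15 (adjusted p = 0.085 for Tnfsf11), and Tnfrsf1b was gained with NFI-C2 (adjusted p = 0.049). With 3 arrays a group the precision is limited, and values tied between arrays leave no measured difference.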
